A study of Mus musculus with 24 samples.

Results

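Gene expression in the hypothalamus was compared between ob/ob mice given γ-oryzanol encapsulated in nanoparticles (Nano-Orz) and ob/ob mice given its vehicle (Nano-Veh). The members of this comparison were chosen by their labelled tissue and treatment, 3 hypothalamus arrays labelled Nano oryzanol and 3 labelled Nano vehicle, 6 of the 24 arrays of the series. All mice were male, leptin-deficient ob/ob animals on chow, 9 weeks old after 4 weeks of oral treatment, and the remaining 18 arrays hold the hypothalamus of a regular γ-oryzanol arm and the livers of both arms. γ-Oryzanol is a lipophilic mixture of ferulic acid esters from rice bran, and the particles are made of poly(lactide-co-glycolide). The vehicle was water rather than empty particles, so an effect of the particle cannot be told apart from one of γ-oryzanol. Each group was 3 mice picked as representative of a larger group, each on 1 array, and the dose given to the mice on the arrays is not stated in the sources used here. The replicates are numbered in the labels and are called Nano-Orz 1 to 3 and Nano-Veh 1 to 3.

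The hypothalamus surrounds the third ventricle at the base of the brain and holds the neurons that set feeding, hormone release, body temperature and arousal. Tissue that borders it belongs to other structures: the choroid plexus, an epithelium in the ventricles that makes cerebrospinal fluid, the meninges, fibroblast layers over the brain surface, the thalamus above, and the pituitary below. ob/ob mice lack leptin, the fat cell hormone that acts on hypothalamic neurons to restrain feeding. In whole tissue, fewer cells of a type and less RNA per cell cannot be told apart.

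The signal is a log2 value per probe set made by distribution free weighted (DFW) summarization, which leaves most probe sets almost flat over arrays. Of the 45101 probe sets, 99.7% spanned less than 1 thousandth of a log2 unit over the 6 arrays and 155 spanned that much or more. Values are therefore given in thousandths of a log2 DFW unit (mDFW) from the mean of the 6 arrays, and a difference is Nano-Orz minus Nano-Veh. A difference in DFW units is not a fold change, since the summarization compresses it by an amount that differs from probe set to probe set. The median spread within a group was 0.00184 mDFW (SD). The samples were hypothalamus by their markers: Avp, Hcrt and Pmch, which encode vasopressin, orexin and melanin-concentrating hormone, were at 11.9, 11.2 and 13.0 log2 units in all 6 arrays, against 6.46, 6.53 and 6.13 in the 6 Nano arm liver arrays, and Alb, the liver's main plasma protein, was at 6.41 against 14.7. Liver and hypothalamus were summarized apart, so those levels are side by side only.

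The groups were compared by rank product, which ranks all probe sets by their difference in each of the 9 pairs of a Nano-Orz and a Nano-Veh array. Calls are made on the geometric mean of the ranks, so extreme ranks in some pairs can outweigh opposite ranks in others. The threshold was an estimated proportion of false positives (pfp) under 0.05. The rank product called 110 probe sets higher with Nano-Orz (0.244% of all) and 331 lower (0.734%). One probe set was kept for each of 18194 genes, and of these 39 genes were called higher (0.214%) and 147 lower (0.808%). A call could go against the group means: 4 probe sets called higher and 1 called lower had a mean difference of the other sign. Of those, 3 called higher were for Gh, growth hormone of the pituitary, with pfp 0.00346, 0.00222 and 0.00263 and a lower mean in Nano-Orz, since Nano-Veh 2 was far above the other arrays. The 3 Nano-Orz arrays lay apart from the 3 Nano-Veh arrays in 16 of the 39 higher genes and 58 of the 147 lower ones. Such a separation, with no regard to the call, was seen in 6.67% of all genes in the higher direction and 4.51% in the lower. Of the 441 called probe sets, 294 (66.7%) were among the 1% with the widest spread over the 6 arrays, because the rank product compares raw differences across probe sets. limma, which sets each difference against its own spread, gave no adjusted p under 0.05 (lowest 0.266), with 2753 probe sets (6.1%) under an unadjusted p of 0.05. With 3 arrays against 3, an exact two-sided permutation test of a single gene cannot give a p below 0.1.

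Single arrays moved these counts. Without Nano-Orz 1, 6 probe sets were called higher, without Nano-Orz 2, 10, and without Nano-Orz 3, 34. Without Nano-Veh 1, 72 were called lower, without Nano-Veh 2, 83, and without Nano-Veh 3, 113. With Nano-Orz 1 and 2 both left out no probe set was called higher and 272 were called lower, and with Nano-Veh 1 and 2 both left out 176 were called higher and none lower, a pair of settings chosen after the values were seen. Fewer arrays give fewer pairs to rank. The calls that passed in all 6 sets with 1 array left out were 4 higher and 47 lower probe sets, or 2 of the 39 higher and 25 of the 147 lower genes.

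**Figure D1:**
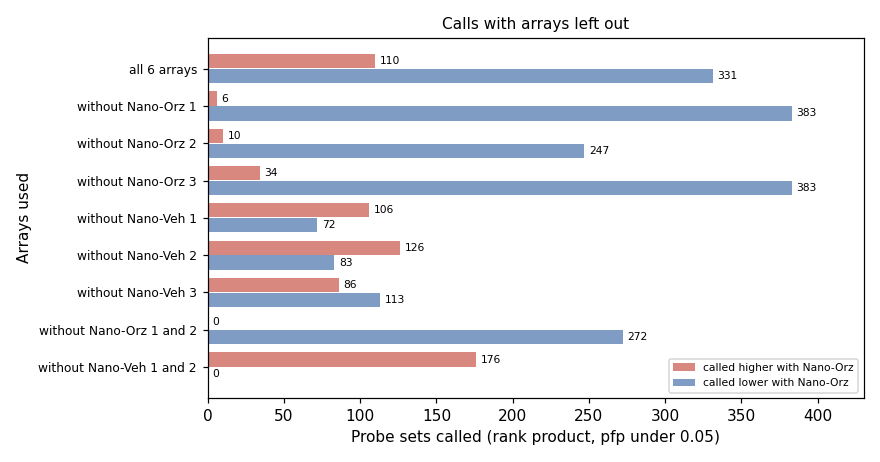
Number of probe sets called by rank product (horizontal axis) with all 6 arrays and with the named arrays left out (rows). The upper bar of each row counts probe sets higher with Nano-Orz and the lower bar those lower with it. Counts of higher calls were smallest when a Nano-Orz array was missing (6 to 34), and counts of lower calls when a Nano-Veh array was missing (72 to 113).

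The direction of the many small differences also depended on the scale. The median of Nano-Orz 1 was 0.135 mDFW below those of the other arrays, so that centring each array on its median added 0.0452 mDFW to every difference. As deposited, 55.4% of the 18194 genes had a positive difference and 44.5% a negative one, and after centring 98.8% were positive. The rank product is unchanged by such a shift. After quantile normalization it called 68 probe sets higher, 1 of them among the 110, and 98 lower, all of them among the 331. Counts of signs below are given for the deposited values and, where they carry a result, after centring and after quantile normalization.

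Genes of the choroid plexus were lower with Nano-Orz by group mean. This list and all lists below were written with earlier results of these data known. Their counts, and the shares of all genes beside them, are therefore a description and not a test. Of 30 listed genes 27 were measured, and 18 of them were called lower (0.808% of all genes) and none higher. All 27 differences were negative, with a median of -0.273 mDFW against 0.0000707 over all genes. After median centring 19 of the 27 were negative (1.17% of all genes were), and after quantile normalization 20 of the 27 were (3.01%). Nano-Orz was lower than Nano-Veh with no overlap for 6 of the 27 (4.51% of all genes). The list shares Igf2 with the meningeal list below.

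Ttr, which encodes transthyretin, the carrier of thyroid hormone and of retinol binding protein and the most abundant product of this epithelium, had the widest range of any gene. Its highest probe set was at 7.11, 13.2 and 10.3 log2 units in Nano-Orz 1, 2 and 3, against 16.4, 16.2 and 9.33 in Nano-Veh 1, 2 and 3. The groups overlapped: Nano-Veh 1 and 2 were the highest, Nano-Veh 3 was below Nano-Orz 2 and 3, and Nano-Orz 1 was the lowest. The difference was -3.78 ± 2.91 log2 units (SE, n = 3 each), with an adjusted p of 0.931 by limma. All 4 Ttr probe sets were called lower. The call passed with any 1 array left out, while the difference ran from -6109 mDFW without Nano-Veh 3 to -2246 mDFW without Nano-Orz 1.

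**Figure D2:**
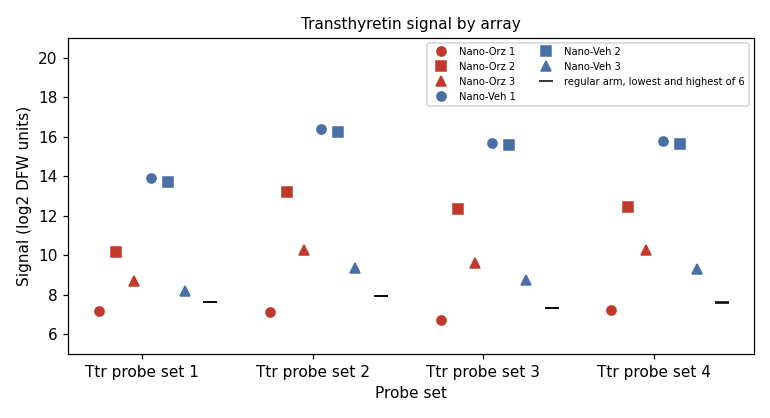
Signal of the 4 Ttr probe sets in log2 DFW units (vertical axis) in each hypothalamus array. Red points are the 3 Nano-Orz arrays, blue points the 3 Nano-Veh arrays, and black bars the lowest and highest of the 6 regular arm arrays, which were summarized apart. Nano-Veh 1 and 2 lie above all other arrays in each probe set, and for the highest one reach 16.4 and 16.2.

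The same order of vehicle arrays was found in genes of the epithelium's transport and secretion. Kcnj13, the potassium channel Kir7.1 of its apical membrane, was at -9.41, -7.95 and -2.34 mDFW in Nano-Orz 1, 2 and 3, against 10.6, 9.95 and -0.896 mDFW in Nano-Veh 1, 2 and 3. Kcne2, a potassium channel beta subunit, was at -5.13, -3.95 and -4.28 mDFW in Nano-Orz, against 9.54, 7.62 and -3.80 mDFW in Nano-Veh. In both the groups did not overlap, but Nano-Veh 3 lay next to the Nano-Orz arrays and far from Nano-Veh 1 and 2. The differences were -13.1 ± 4.31 and -8.90 ± 4.18 mDFW (SE, n = 3 each, adjusted p 0.788 and 0.837 by limma), and both calls passed with any 1 array left out.

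Kl, which encodes klotho, a co-receptor for fibroblast growth factor 23, was at -7.44, -7.57 and -4.90 mDFW in Nano-Orz 1, 2 and 3, against 15.8, 10.7 and -6.67 mDFW in Nano-Veh 1, 2 and 3. Here Nano-Veh 3 fell among the Nano-Orz arrays. The difference of -13.3 ± 6.87 mDFW was -8.67 without Nano-Veh 1 and -19.9 without Nano-Veh 3, and the call passed in all 6 such sets. Another Kl probe set was not called, at 0.00209 mDFW. Ecrg4, which encodes the secreted peptide precursor augurin and was listed with ependyma, had the same order, at -19.4, -15.3 and -5.73 mDFW in Nano-Orz, against 28.1, 24.5 and -12.1 mDFW in Nano-Veh. Among the other called members, Sostdc1, a secreted antagonist of bone morphogenetic proteins, had a difference of -5.32 mDFW, Folr1, the folate receptor that moves folate into cerebrospinal fluid, -2.94, F5, coagulation factor V, -2.86, and Clic6, a chloride intracellular channel family member, -2.49. The calls of those last 4 genes were lost without Nano-Veh 1 and without Nano-Veh 2, as single arrays left out, and their smallest differences in such sets were -3.22, -1.92, -1.70 and -1.56 mDFW. Car12, a carbonic anhydrase, had a difference of -1.47 mDFW with no overlap of the groups, while its other probe sets were not called, at 0.000703 and -0.0178 mDFW.

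Nano-Veh 1 and 2 were the 2 highest arrays in 21 of the 27 choroid plexus genes, an order looked for after the values were seen and found in 5.65% of all genes. Called members numbered 6 without Nano-Veh 1 and 6 without Nano-Veh 2, against 18 with all arrays. With both left out, no member was called lower and 5 were called higher. With Nano-Orz 1 and 2 left out, 14 were called lower. Members that were not called include Otx2, the homeobox factor of this epithelium, at -0.0423 mDFW (pfp 0.236), and Slc12a2, a sodium, potassium and chloride cotransporter also made by other brain cells, at -0.00095 mDFW.

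Genes of meningeal fibroblasts and barrier cells were lower too, with another order of arrays. Of 37 listed genes 36 were measured, and 25 of them were called lower (0.808% of all genes) and none higher. With no overlap of the groups 9 were lower (4.51% of all genes). All 36 differences were negative, with a median of -0.586 mDFW. After median centring 28 were negative and after quantile normalization 27. Nano-Orz 1 and 2 were the 2 lowest arrays in 32 of the 36, an order looked for after the values were seen and found in 7.3% of all genes, and Nano-Orz 3 was near the Nano-Veh arrays.

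Mgp, which encodes matrix Gla protein, an inhibitor of calcification, was at -37.7, -22.5 and 12.5 mDFW in Nano-Orz 1, 2 and 3, against 5.72, 13.2 and 28.8 mDFW in Nano-Veh 1, 2 and 3. Fmod, which encodes the collagen-binding proteoglycan fibromodulin, was at -18.9, -15.7 and 8.41 mDFW in Nano-Orz, against 3.68, 6.20 and 16.2 mDFW in Nano-Veh. In both genes Nano-Orz 1 and 2 were far below the rest, and Nano-Orz 3 lay within the range of Nano-Veh. The difference of Mgp was -31.8 ± 16.4 mDFW (SE, n = 3 each, adjusted p 0.856 by limma), -20.9 without Nano-Orz 1, and that of Fmod was -17.4 ± 9.42 mDFW, with its call lost without Nano-Veh 3. All 6 probe sets of Fmod were called lower.

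In the next 5 genes the groups did not overlap, with Nano-Orz 3 just under the lowest vehicle array. Igfbp2, a binding protein of insulin-like growth factors, was at -12.3, -7.54 and 3.08 mDFW in Nano-Orz 1, 2 and 3, against 4.28, 7.29 and 5.18 mDFW in Nano-Veh 1, 2 and 3. Islr, a membrane protein of mesenchymal cells, was at -9.21, -6.17 and 2.41 mDFW in Nano-Orz, against 3.59, 4.02 and 5.36 mDFW in Nano-Veh. Dcn, the collagen-binding proteoglycan decorin, was at -5.46, -5.65 and 1.95 mDFW in Nano-Orz, against 2.67, 3.02 and 3.46 mDFW in Nano-Veh. All 3 calls passed with any 1 array left out, and the differences were -11.2 ± 4.63, -8.64 ± 3.52 and -6.10 ± 2.51 mDFW (SE, n = 3 each, adjusted p 0.814, 0.813 and 0.814 by limma). Ccn3, a secreted matrix protein, and Cdh1, the epithelial adhesion molecule E-cadherin, were called lower with the same order, at -7.29 ± 3.00 and -2.92 ± 1.03 mDFW, although neither was in the meningeal list.

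**Figure D3:**
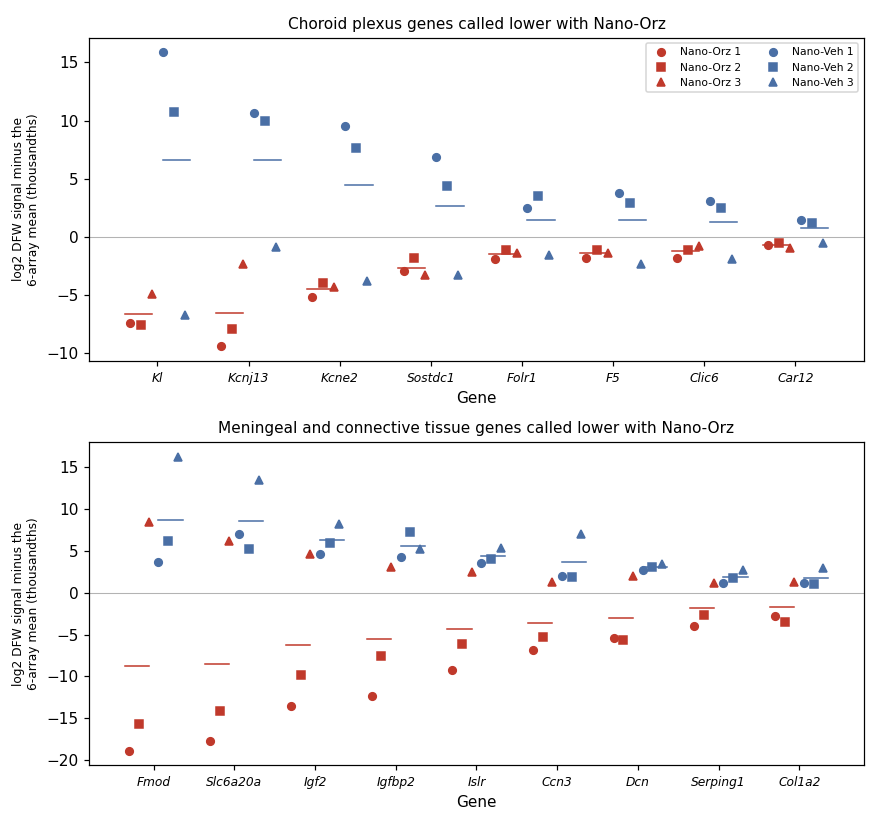
Signal of 8 choroid plexus genes (upper panel) and 9 meningeal and connective tissue genes (lower panel), as log2 DFW signal minus the mean of the 6 arrays in thousandths (vertical axis). Each point is 1 array, red for Nano-Orz and blue for Nano-Veh, and the bars are group means. In the upper panel Nano-Veh 1 and 2 stand above the other 4 arrays, as for Kl at 15.8 and 10.7, and in the lower panel Nano-Orz 1 and 2 stand below them, as for Fmod at -18.9 and -15.7.

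Transporters, matrix proteins and transcription factors of the meninges shared this order. Slc6a20a, a transporter of proline and other imino acids, had a difference of -17.1 ± 7.82 mDFW, and Slc13a4, a sulfate transporter, of -1.39 mDFW. Foxd1, a forkhead factor listed both here and among hypothalamic transcription factors, had one of -0.339 mDFW with no overlap of the groups, Foxc2 one of -0.974 and Foxc1 one of -0.128. Ptgds, the prostaglandin D synthase secreted into cerebrospinal fluid, was at -3.66, -2.04 and 1.32 mDFW in Nano-Orz, against 1.19, 1.27 and 1.92 mDFW in Nano-Veh. Its call was lost without Nano-Veh 3, and its difference turned positive after quantile normalization. Called members of the list numbered 17 without Nano-Orz 1, 18 without Nano-Orz 2, 9 without Nano-Veh 3 and 10 without Nano-Orz 1 and 2, against 25 with all arrays, and none without Nano-Veh 1 and 2.

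Lists by function moved with members of those cell lists. Among insulin-like growth factors and their binding proteins, 6 of 16 measured genes were called lower. Igf2, a growth factor made in both the choroid plexus and the meninges of the adult brain, was at -13.5, -9.79 and 4.61 mDFW in Nano-Orz, against 4.60, 5.97 and 8.16 mDFW in Nano-Veh, so that Nano-Orz 3 was level with the lowest vehicle array. Igfbp4 differed by -2.36 mDFW, with Nano-Veh 1 at 3.34 mDFW and the difference at -1.27 without it. Of 31 collagens 5 were called lower, among them Col1a2 at -3.42, Col3a1 at -2.21 and Col6a2 at -0.213 mDFW. Of 20 genes of coagulation and serine protease inhibition 5 were called lower, among them Serping1, the inhibitor of complement C1, at -3.71 mDFW, Thbd, the thrombin receptor thrombomodulin, at -2.04 and Itih2, which encodes a hyaluronan-associated plasma protein, at -1.59. Of 22 retinoid genes 5 were called lower, with Aldh1a2, the enzyme that makes retinoic acid, at -1.68, and Rbp4, the plasma carrier of retinol, at -0.862 beside Ttr and Ptgds. None of these 4 lists had a gene called higher, and of all genes 0.808% were called lower. In the order given, 1, 2, 0 and 2 members were higher with no overlap of the groups (6.67% of all genes). Those lower with no overlap numbered 5, 3, 3 and 0 (4.51% of all genes). The calls of Aldh1a2 were lost without any one of the Nano-Veh arrays, those of Col1a2 and Col3a1 without Nano-Veh 3, those of Thbd and Itih2 without Nano-Veh 1 and without Nano-Veh 3, and those of Rbp4 and Col6a2 in 5 of the 6 sets with 1 array left out. After median centring most members of each of these lists had a positive difference (10 of 16, 25 of 31, 15 of 20 and 16 of 22), as did most genes.

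A few genes of antigen presentation and of macrophages were called lower. H2-Aa, an MHC class II chain, was at -2.72, -2.57 and 1.49 mDFW in Nano-Orz, against 0.530, 1.30 and 1.96 mDFW in Nano-Veh, and Lyz2, lysozyme of macrophages, at -1.07, -0.691 and 0.443 mDFW in Nano-Orz, against -0.0885, 0.623 and 0.779 mDFW in Nano-Veh. Nano-Orz 1 and 2 were the lowest arrays in both, and Nano-Orz 3 lay within the vehicle range. H2-Aa, H2-Eb1 and Cd74 were the 3 genes called lower of 16 in the antigen presentation list, and Lyz2, Lyz1 and Cd74 the 3 of 26 in the microglia and macrophage list (0.808% of all genes). Over those whole lists Nano-Orz 1 and 2 were the 2 lowest arrays in 7 of 16 and 12 of 26 genes, and after median centring 13 of the 16 and 21 of the 26 differences were positive. The calls of H2-Aa and Lyz2 were lost without Nano-Veh 3, and the range of the difference with 1 array left out was -3.91 to -1.81 and -1.32 to -0.562 mDFW. The other probe sets of H2-Aa were not called, at -0.0192, -0.00117 and -0.0499 mDFW. Markers of resident microglia such as Tmem119 and P2ry12 were not called. Ly75, an endocytic receptor of dendritic cells, was called higher at 0.0658 mDFW, and that call was lost without any one of the Nano-Orz arrays and without Nano-Veh 3.

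Other cell lists had few or no calls. None of 20 astrocyte, 21 oligodendrocyte, 23 endothelial, 19 pericyte and smooth muscle, 20 general neuron and 12 blood genes was called in either direction. Of all genes 0.214% were called higher and 0.808% lower, shares at which most lists of this size hold no call. Lower with no overlap were 4 endothelial, 3 pericyte and smooth muscle and 1 oligodendrocyte genes (4.51% of all genes). Higher with no overlap were 3 general neuron and 1 astrocyte genes (6.67%). After median centring no gene of these lists was lower with no overlap. In the ependymal and tanycyte list 2 of 29 were called lower, against 0.808% of all genes. They were Ecrg4 and the intermediate filament gene Vim, at -0.278 mDFW, and the call of Vim was lost without any one of the Nano-Veh arrays. None of 19 clock genes and 17 Nrf2 targets and metallothioneins was called, and Ttr was the 1 of 19 genes called in the list of hepatocyte plasma proteins. The plot of lists by array shows the choroid plexus list high in Nano-Veh 1 and 2 and the meningeal list low in Nano-Orz 1 and 2.

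**Figure D4:**
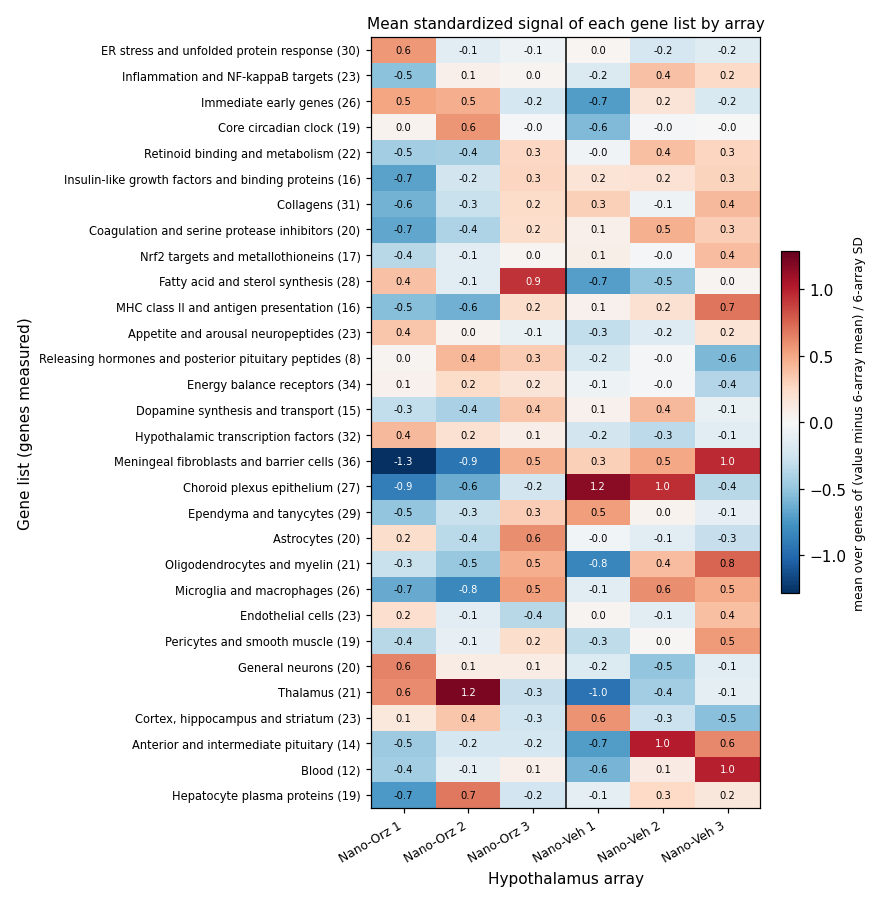
Mean standardized signal of 30 gene lists (rows, with the number of genes measured) in the 3 Nano-Orz arrays (left of the line) and the 3 Nano-Veh arrays (right). Each gene was set to mean 0 and SD 1 over the 6 arrays before averaging, so colour shows the order of the arrays and not the size of a difference. The largest values are -1.29 for the meningeal list in Nano-Orz 1, 1.21 for the thalamus list in Nano-Orz 2 and 1.17 for the choroid plexus list in Nano-Veh 1.

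Immediate early genes, which neurons switch on within minutes of activity and which many tissues switch on with stress, were the list with the most members called higher. Of 26 listed and measured genes 6 were called higher (0.214% of all genes) and none lower (0.808%). With no overlap of the groups 3 were higher (6.67% of all genes), and after quantile normalization none was. The promoters of 3 called genes are shown, since they share a motif: 250 bases before to 50 after the transcription start from RefSeq on build GRCm38.p6, read 5′ to 3′ on the gene's strand. Capitals mark TGACGT on either strand (ACGTCA in the printed strand where the match is on the other one), the core letters of the cyclic AMP response element bound by CREB.
Fos (chr12:85473640-85473939, plus strand): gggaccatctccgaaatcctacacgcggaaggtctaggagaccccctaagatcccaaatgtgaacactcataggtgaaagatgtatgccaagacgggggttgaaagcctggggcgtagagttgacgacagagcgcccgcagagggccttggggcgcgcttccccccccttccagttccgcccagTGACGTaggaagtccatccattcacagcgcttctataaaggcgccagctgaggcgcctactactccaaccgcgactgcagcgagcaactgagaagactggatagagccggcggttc
Dusp1 (chr17:26508423-26508722, minus strand): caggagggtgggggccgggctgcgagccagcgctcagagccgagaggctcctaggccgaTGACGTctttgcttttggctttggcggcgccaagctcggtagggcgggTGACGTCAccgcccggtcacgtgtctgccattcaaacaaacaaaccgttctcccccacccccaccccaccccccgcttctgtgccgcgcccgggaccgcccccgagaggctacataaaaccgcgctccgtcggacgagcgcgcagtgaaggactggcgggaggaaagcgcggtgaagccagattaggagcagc
Npas4 (chr19:4989922-4990221, minus strand): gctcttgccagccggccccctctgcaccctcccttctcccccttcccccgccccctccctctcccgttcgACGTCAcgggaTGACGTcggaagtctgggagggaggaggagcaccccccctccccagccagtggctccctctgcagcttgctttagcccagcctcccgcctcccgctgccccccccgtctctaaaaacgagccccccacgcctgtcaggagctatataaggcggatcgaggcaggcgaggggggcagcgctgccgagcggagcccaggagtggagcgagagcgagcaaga
These letters occurred in the promoters of 3 of the 5 called genes with a sequence (once in Fos, 3 times in Dusp1, 2 of them overlapping on opposite strands, and 2 times in Npas4). They occurred in 7.51% of all 32851 promoters of the same length, a share per promoter and not per gene. The share among immediate early genes that were not called was not counted. No match was found in that of Nr4a1 or in the 6 of Sgk1. A match is a description of the letters and was not tested as a site.

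Fos, the AP-1 subunit, was at 5.90, 3.70 and -1.58 mDFW in Nano-Orz 1, 2 and 3, against -5.71, 0.415 and -2.73 mDFW in Nano-Veh 1, 2 and 3. Dusp1, a phosphatase that switches off MAP kinases, was at 0.880, 1.20 and 0.0690 mDFW in Nano-Orz, against -1.92, -0.112 and -0.120 mDFW in Nano-Veh. In both Nano-Orz 1 and 2 were the highest and Nano-Veh 1 the lowest. The groups overlapped for Fos and not for Dusp1. The differences were 5.35 ± 2.84 and 1.43 ± 0.688 mDFW (SE, n = 3 each, adjusted p 0.863 and 0.844 by limma), that of Dusp1 was 0.832 without Nano-Veh 1, and both calls passed with any 1 array left out. They were the 2 genes of the 39 called higher that did so.

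Sgk1, a kinase induced by glucocorticoids and activity, was at 0.415, 0.888 and 0.130 mDFW in Nano-Orz, against -1.16, -0.663 and 0.393 mDFW in Nano-Veh. Nr4a1, an orphan nuclear receptor, was at 0.273, 0.352 and -0.0660 mDFW in Nano-Orz, against -0.448, 0.0240 and -0.135 mDFW in Nano-Veh. The groups overlapped in both, with Nano-Veh 1 the lowest array. Their differences were 0.955 ± 0.509 and 0.372 ± 0.189 mDFW, and 0.612 and 0.241 without Nano-Veh 1. Egr1 and Npas4, transcription factors of active neurons, differed by 0.355 and 0.0876 mDFW. The calls of Nr4a1 and Egr1 were lost without Nano-Orz 1 and without Nano-Orz 2, and that of Sgk1 without Nano-Orz 2. Junb, another AP-1 subunit, and the clock gene Per1 had no overlap of the groups, at 0.0219 and 0.0223 mDFW, and were not called (pfp 0.16 and 0.123). With Nano-Orz 1 and 2 left out no member was called, and with Nano-Veh 1 and 2 left out 5 were. After quantile normalization 1 of the 6 was called, Fos.

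**Figure D5:**
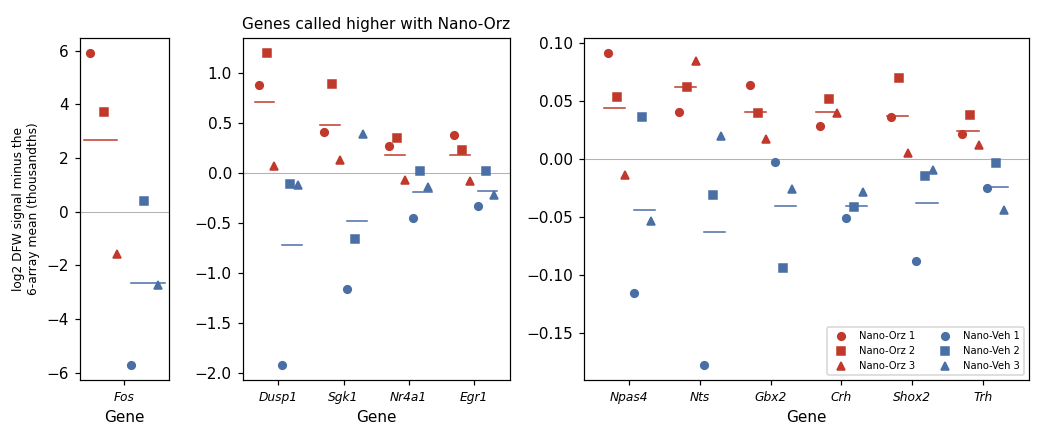
Signal of 11 genes called higher with Nano-Orz, as log2 DFW signal minus the mean of the 6 arrays in thousandths (vertical axis, with a different scale in each of the 3 panels). Each point is 1 array, red for Nano-Orz and blue for Nano-Veh, and the bars are group means. Nano-Veh 1 was the lowest array for Fos, Dusp1, Sgk1, Nr4a1 and Egr1, and for Crh the groups did not overlap.

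Called higher with no overlap of the groups, and ranked by size, the 12 leading genes had small differences other than that of Dusp1. Rrad, a Ras-related GTPase that inhibits calcium channels, differed by 0.201 mDFW, Nts, the peptide neurotensin, by 0.125, the long noncoding RNA A330023F24Rik by 0.114 and Tent5a, a poly(A) polymerase, by 0.103. Gbx2, Crh and Shox2 followed at 0.0810, 0.0805 and 0.0747. Ly75, Gprin2, Ccdc25 and the splicing kinase gene Clk1 were between 0.0584 and 0.0658. All were larger than the 0.0452 mDFW that median centring adds to every difference, a shift that cannot reverse a positive difference. After quantile normalization the difference of Clk1 was negative, and Fos was the 1 gene of the 39 called higher that kept its call. All 11 calls other than that of Dusp1 were lost without Nano-Orz 1 and also without Nano-Orz 2, and 8 of the 11 were lost without Nano-Orz 3. The difference of Tent5a was 0.0602 without Nano-Orz 1, that of Shox2 0.0494 without Nano-Veh 1 and that of Ccdc25 0.0383 without Nano-Veh 3. Another Shox2 probe set was not called, at 0.00196 mDFW.

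Hypothalamic peptides differed in both directions. Crh, the releasing hormone of the stress axis made in the paraventricular nucleus, was at 0.0286, 0.0521 and 0.0401 mDFW in Nano-Orz 1, 2 and 3, against -0.0509, -0.0416 and -0.0284 mDFW in Nano-Veh 1, 2 and 3. Trh, the releasing hormone of the thyroid axis, was at 0.0220, 0.0378 and 0.0127 mDFW in Nano-Orz, against -0.0251, -0.00322 and -0.0440 mDFW in Nano-Veh. The groups did not overlap for either gene, and for Crh the arrays of each group lay close together. Avp, vasopressin, was the peptide called lower, at -0.0274, -0.241 and 0.0471 mDFW in Nano-Orz, against 0.0592, 0.0696 and 0.0923 mDFW in Nano-Veh, with Nano-Orz 2 the farthest. The differences were 0.0805 ± 0.00943, 0.0483 ± 0.0139 and -0.147 ± 0.0868 mDFW (SE, n = 3 each, adjusted p 0.653, 0.776 and 0.882 by limma), and that of Avp was -0.0638 without Nano-Orz 2 and positive after quantile normalization. The calls of Crh and Trh were lost without any one of the Nano-Orz arrays and that of Avp without any one of the Nano-Veh arrays. Nts was at 0.0408, 0.0620 and 0.0847 mDFW in Nano-Orz, against -0.177, -0.0306 and 0.0200 mDFW in Nano-Veh, where Nano-Veh 1 lay apart and the difference without it was 0.0678.

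Of the 23 appetite and arousal peptides measured Nts was the 1 called. Of the 8 releasing hormones and posterior pituitary peptides 2 were called higher and 1 lower (0.214% and 0.808% of all genes). No member of the list of 34 receptors of energy balance was called, and 6 of them, Esr1, Calcr, Ntrk2, Adipor1, Trhr and Oxtr, had higher Nano-Orz arrays with no overlap, at 0.00021 to 0.0228 mDFW, where 6.67% of all genes did. These sizes are below the 0.0452 mDFW that centring adds, and after quantile normalization none of the 34 was separate. Of 32 hypothalamic transcription factors Foxd1 was the 1 called. The homeobox factors Dlx1, Dlx2 and Dlx5 of GABAergic neurons were among 5 of the 32 that were higher with no overlap, at 0.0139, 0.0193 and 0.00757 mDFW, and 3, Fezf2, Foxd1 and Lmx1b, were lower with no overlap (6.67% and 4.51% of all genes). After quantile normalization none was higher with no overlap and 1 was lower. None of 28 genes of fatty acid and sterol synthesis was called, and 25 had a positive difference, as did 55.4% of all genes. Scd2, Elovl5, Acsl3 and Hsd17b7 were higher with no overlap, at 0.0000767 to 0.00755 mDFW, which is 4 of 28 against 6.67% of all genes. After median centring all 28 were positive, as were 98.8% of all genes, and after quantile normalization none was separate.

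Of 15 dopamine genes 3 were called lower (0.808% of all genes), through arrays of both groups. Slc6a3, the dopamine transporter, was at -35.2, -24.4 and 25.1 mDFW in Nano-Orz 1, 2 and 3, against 8.18, 35.2 and -8.87 mDFW in Nano-Veh 1, 2 and 3. Th, tyrosine hydroxylase, the first enzyme of dopamine synthesis, was at -0.532, -0.753 and 0.647 mDFW in Nano-Orz, against -0.126, 1.03 and -0.270 mDFW in Nano-Veh. The groups overlapped widely in both, with Nano-Orz 3 and Nano-Veh 2 high. The differences were -23.0 ± 22.6 and -0.425 ± 0.600 mDFW (SE, n = 3 each, adjusted p 0.960 and 0.998 by limma). Without Nano-Veh 2 the calls of both were lost, and the difference of Th was -0.0145 mDFW. That of Slc6a3 ran from -41.3 mDFW without Nano-Orz 3 to -11.1 without Nano-Orz 1. Th kept its call only without Nano-Orz 3. When same-numbered arrays were ranked as pairs, a pairing that rests on the numbers alone, the calls of Th and Ppp1r1b were lost and that of Slc6a3 was the 1 left of 3 in the dopamine list, while the thalamus list described below had 5 genes called higher in place of 2. Ppp1r1b, the dopamine-regulated phosphatase inhibitor DARPP-32, was the third of 15 genes called lower, at -0.123 mDFW as deposited and positive after quantile normalization, while Drd2, the D2 receptor, and Slc18a2, the vesicular monoamine transporter, were at -0.0086 and -0.196 mDFW with a pfp of 0.891 and 0.0865.

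Genes that the study also measured by RT-qPCR in hypothalamus for endoplasmic reticulum (ER) stress and inflammation were not called. The paper reports their mRNA as decreased by Nano-Orz in that assay, in larger groups of mice. A missing call on 3 arrays per group, on a scale that leaves most probe sets almost flat, cannot decide on that result. Ddit3, the stress factor CHOP, was at -0.00341, -0.00146 and -0.00101 mDFW in Nano-Orz, against 0.000491, 0.00614 and -0.000749 mDFW in Nano-Veh. The groups did not overlap, the difference was -0.00392 ± 0.00224 mDFW (SE, n = 3 each, adjusted p 0.877 by limma), and it was positive after median centring and after quantile normalization. Dnajb9, the ER chaperone ERdj4, differed by 0.00204 ± 0.00568 mDFW and Xbp1, a transcription factor of the unfolded protein response, by 0.00127 ± 0.00388. The arrays do not separate the spliced form of Xbp1. Tnf and Ccl2, cytokines of inflammation, differed by 0.00018 ± 0.000671 and -0.00102 ± 0.00537 mDFW. The groups overlapped in these last 4 genes, and each difference changed sign with at least 1 array left out. None of 30 ER stress genes and none of 23 inflammation genes was called in either direction.

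Markers of tissue next to the hypothalamus moved with other calls, and their part in those calls was not tested. In the thalamus list Gbx2 and Shox2, homeobox factors of thalamic neurons, were the 2 of 21 genes called higher (0.214% of all genes). Of the 21 differences 20 were positive (55.4% of all genes), and 6 genes had no overlap (6.67%). After median centring all 21 were positive, as were 98.8% of all genes, and after quantile normalization none of the 21 was separate or called. Nano-Orz 1 and 2 were the 2 highest arrays in 14 of the 21, an order found in 9.01% of all genes and looked for after the values were seen. Those 2 arrays were also the highest in 9 of the 26 immediate early genes. In another list, 3 of 23 genes of cortex, hippocampus and striatum were called lower (0.808% of all genes), namely Neurod6, Neurod2 and Ppp1r1b. Neurod2 differed by -0.0470 mDFW as deposited and by 0.315 after quantile normalization. Neurod6, a factor of cortical pyramidal neurons, was at -10.0, -11.9 and -9.10 mDFW in Nano-Orz, against 40.0, 1.26 and -10.2 mDFW in Nano-Veh. That difference of -20.7 mDFW rested on Nano-Veh 1, without which it was -5.86 and not called. Hpca, the calcium sensor hippocalcin, which is not in that list, was also called lower and highest in Nano-Veh 1, at 2.67 mDFW. Its difference was -1.82 mDFW with all arrays and -0.942 without Nano-Veh 1. Of 14 pituitary genes Cga, the common alpha chain of the glycoprotein hormones, was called lower, at -17.0, -10.1 and -3.35 mDFW in Nano-Orz, against -8.89, 21.4 and 17.9 mDFW in Nano-Veh. Nano-Veh 2 and 3 were the 2 highest arrays in 8 of the 14 pituitary genes, against 6.73% of all genes. Of the 64 control probe sets of the array 2 were called lower, both for 18S ribosomal RNA, at -0.595 and -0.252 mDFW with overlapping groups.

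The regular γ-oryzanol arm is the most similar comparison, with another vehicle (methylcellulose), other mice and a summarization of its own, so levels cannot be set against each other and differences within each arm stand side by side. There 0.154% of genes were called higher and 0.236% lower. Of the 27 choroid plexus genes 1 was called, in the higher direction, and of the 36 meningeal genes none, with medians of -0.000226 and 0.00338 mDFW. The highest Ttr probe set ran from 7.91 to 7.92 log2 units over the 6 regular arm arrays. Fos differed by 5.35 mDFW in the Nano arm and by -3.78 in the regular arm, and Egr1 by 0.355 in the Nano arm and -0.58 in the regular arm, where 2 of the 26 immediate early genes were called lower. Crh differed by 0.0805 mDFW in the Nano arm and by 0.107 in the regular arm, and Trh by 0.0483 in the Nano arm and 0.544 in the regular arm, where 3 of the 8 releasing hormones and posterior pituitary peptides were called higher. Of the 21 thalamus genes 11 were called lower in the regular arm, and Shox2 differed by 0.0747 mDFW in the Nano arm and by -58.2 in the regular arm. In a limma fit of both arms, the difference between the arms' effects passed an adjusted p of 0.05 for 2 of 45101 probe sets (0.00443%), and for no member of any of the 30 lists. The effects on the choroid plexus, meningeal, immediate early and thalamus genes are therefore not shown to differ between the arms.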

How the data were processed

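Total RNA from hypothalamus was labelled and hybridized to Affymetrix GeneChip mouse arrays, 1 array per mouse. The authors summarized the scanner intensities by DFW and deposited log2 signals per probe set in a series table, each tissue and arm apart (the median is 7.153 in each of these 6 arrays). They compared groups by rank product at a false discovery rate of 0.05. No detection calls or probe intensities were used here, so values near background cannot be marked, and the number of arrays limits the precision. A further 24 per-sample columns in other tables, named by animal codes, were not used, since no label links a code to a sample.

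The deposited log2 values were used with no further normalization. Rank products were computed over all 9 pairs of arrays with 100 permutations of the values within arrays (numpy 2.4.6). Differences are between group means, and the standard errors printed combine the variances of the 2 groups for that probe set alone, with no moderation. Benjamini-Hochberg adjusted p-values came from limma 3.58.1 over all 45101 probe sets, and the contrast with the regular arm from its interaction term. Both steps were run on simulated data with known changes, with equal spread over probe sets and with the spread of each probe set. A lowest recovery was required only of the rank product under equal spread. The simulation therefore does not show that the pfp holds where spreads differ between probe sets. Of the probe sets 34958 have 1 gene symbol, 932 several and 9211 none, and each gene was read from its probe set of highest mean signal in the 12 hypothalamus arrays. Other probe sets of a called gene were not always called, as for Dcn, Col3a1 and Col6a2. Named genes are the 12 of largest difference in each direction among called genes with no overlap, the RT-qPCR genes, as many as 4 called in a direction from every list, and markers beside a result. Other list members were named after their values were seen. Members and lists were chosen with earlier results of these data known. Alternatives were quantile normalization, median centring, filters, other thresholds and tests, a replicate block and leaving out arrays. The labels do not say whether the mice on these arrays shared a cage or day, so p-values measure the spread between these mice.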

Additional observations from a re-analysis of the deposited data

Results flagged for a closer look

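The treatment effect differed between the Nano and the regular hypothalamus arms for 2 probe sets, by limma's interaction term. For Supt7l, which encodes a subunit of a histone acetyltransferase complex, the effect in the Nano arm minus that in the regular arm was -0.0239 mDFW (adjusted p 0.0113 by limma). In the Nano arm it was at -0.0112, -0.0145 and -0.00949 mDFW in Nano-Orz 1, 2 and 3, against 0.0130, 0.0109 and 0.0114 mDFW in Nano-Veh 1, 2 and 3, a difference of -0.0235 mDFW with no overlap. In the regular arm the difference was 0.000417 mDFW. The other probe set has no gene name in the table used, and its value was -0.00872 mDFW (adjusted p 0.0113 by limma), with a difference of -0.0000537 mDFW in the Nano arm and 0.00866 mDFW in the regular arm. With 1 array left out, no probe set passed without Nano-Veh 1 or without Regular-Orz 1, and 49 passed without Nano-Orz 3. The arms were summarized apart, and both sizes are below the 0.0452 mDFW by which the group medians of the Nano arm differ.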

How the results depend on the processing

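Of 110 probe sets called higher and 331 lower, quantile normalization gave 68 and 98, of which 1 and 98 were among the original calls. Leaving out the lower-mean probe sets gave 70 and 163, pfp under 0.01 gave 47 and 133, adding no overlap 59 and 137, and standardized differences 205 and 198. limma's adjusted p gave 0 and 0, limma with a replicate block 0 and 1, the methods' t-test 1525 and 1140 unadjusted and 0 and 0 after Benjamini-Hochberg. Leaving out 1 array gave 6 to 126 higher and 72 to 383 lower. Without Nano-Orz 1 and 2 there were 0 higher calls, and without Nano-Veh 1 and 2 there were 176 higher and 0 lower. Same-numbered pairs as a replicate block gave 238 higher and 440 lower. Deviations of same-numbered arrays correlated at 0.228, 0.269 and 0.0391 over 45100 probe sets, and at 0.285, 0.327 and 0.280 over the 452 of widest spread, where different numbers gave -0.199 to -0.106. Each array was best with its own number, a hint from the data and not from the labels, and 1 pair was below 0.1 over all probe sets. The number of probe sets with a limma adjusted p under 0.05 was 0, but 96 after quantile normalization, 4 after median centring, 1 with the block and 0 to 1 with an array left out. For the difference between arms it was 2, but 128 after quantile normalization, 83 with the block and 0 to 91 with an array left out. The causes were not tested.

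Among named genes, quantile normalization reversed Avp (2.37 mDFW), Clk1 (-0.0351), Ddit3 (0.276), Drd2 (0.0977), Neurod2 (0.315), Ppp1r1b (0.214) and Ptgds (14.0), and median centring reversed Ccl2 (0.0442), Ddit3 (0.0413) and Drd2 (0.0366). With 1 array left out the difference of Ccl2 ran from -0.00504 to 0.00366 mDFW, Dnajb9 from -0.00246 to 0.00500, Drd2 from -0.017 to 0.00665, Tnf from -0.000131 to 0.000799 and Xbp1 from -0.00151 to 0.00367.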
